A study of Mus musculus with 12 samples.

Results

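Type IV collagen is encoded by 6 genes in the mouse, Col4a1 to Col4a6, and these were the 6 of 25655 genes in the deposited count tables that are described here. They were chosen as a gene family, by symbol, because Col4a3 was strongly lower in the injured retina treated with fluvastatin or MBV when compared to PBS. The values against PBS are therefore given as a description, with no test of the chains. The comparison of MBV with fluvastatin does not use the PBS libraries, and the chains were tested there.

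Whole retinas of C57BL/6J mice (C57BL/6 in the strain label), labelled as 8 to 10 weeks old, were collected 2 days after optic nerve crush (ONC) of the left eye, an injury that cuts off retinal ganglion cell axons from their targets. All animals carried the injury and received 1 intravitreal injection of either PBS, the vehicle control, fluvastatin, a cholesterol-lowering statin, or MBV, matrix-bound nanovesicles prepared from porcine urinary bladder. Each of these groups held 3 libraries of total RNA. A further group of 3 samples received fluvastatin and MBV together and is not analysed here. The study describes its replicates as biological, but neither it nor the labels say whether each library was 1 animal or a pool, so the p-values measure the spread between these libraries. No uninjured retina was among the samples. In the library names of the labels, the numbers 1 to 6 occur in 2 sets. PBS and the group given both agents lie in 1 set, and fluvastatin alone and MBV alone lie in the other. The difference of either treatment from PBS and the difference between the sets cannot be told apart, while MBV against fluvastatin lies within 1 set. The study's list of the genes most changed by both agents together against PBS holds none of the 6 chains. Its lists for fluvastatin alone and for MBV alone hold Col4a3, and that for MBV alone also holds Col4a4. Absence from such a list does not give the level of a gene.

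The 9 libraries held between 21349516 and 30992040 counts, and every chain had at least 135 counts in every library. The 6 markers of retinal ganglion cells, Rbpms and Thy1 among them, summed to between 527 and 783 CPM (counts of a library scaled to a common total, after the trimmed mean of M values, TMM) in the 9 libraries, so the tissue carried defining transcripts of these retinal neurons. Of all genes, 19.6% were called in fluvastatin against PBS, 26.1% in MBV against PBS and 0.0588% in MBV against fluvastatin by edgeR's quasi-likelihood test at an adjusted p under 0.05. Without PBS replicate 1 the calls fell from 3687 to 1726 genes for fluvastatin and from 4937 to 2711 genes for MBV. In bulk RNA, fewer cells of a type and less RNA per cell cannot be told apart.

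Type IV collagen is the network-forming collagen of basement membranes. Its chains assemble into heterotrimers inside the cell. The Col4a1 and Col4a2 products form the trimer found in nearly all basement membranes, including those of blood vessels. The Col4a3, Col4a4 and Col4a5 products form a more crosslinked network that is best known from the kidney glomerulus and is also found in basement membranes of the eye, and mutations in these genes cause Alport syndrome with changes in lens and retina. The Col4a5 and Col4a6 products share another trimer. Mutations of COL4A1 and COL4A2 cause disease of small vessels, with tortuous retinal arteries in some patients. The inner limiting membrane at the vitreal face of the retina, Bruch's membrane under the pigment epithelium, the retinal vessels and the lens capsule all contain type IV collagen.

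The 6 genes lie head to head in 3 pairs, each pair on opposite strands with its starts facing each other. In the gene models of the files (GRCm39), Col4a4 (ENSMUSG00000067158) is at chr1:82426144-82564570 on the minus strand and Col4a3 (ENSMUSG00000079465) at chr1:82564642-82699780 on the plus strand, with 71 bases between them. Col4a1 (ENSMUSG00000031502) is at chr8:11248423-11362826 on the minus strand and Col4a2 (ENSMUSG00000031503) at chr8:11362805-11499287 on the plus strand, and their models overlap by 22 bases. Col4a6 (ENSMUSG00000031273) is at chrX:139948399-140257072 on the minus strand and Col4a5 (ENSMUSG00000031274) at chrX:140258381-140472230 on the plus strand, 1308 bases apart. The strand setting of the counting is not given in the sources used here, so reads of overlapping genes on opposite strands cannot be told apart. In GENCODE release M39 the Col4a4 model reaches into Col4a3, so that these chains overlap there, and Col4a3 also overlaps the antisense gene C430014B12Rik and Gm54925. Gm44716, inside Col4a1, is also in the count table and had no count in the 9 libraries. Other overlaps of the chains in GENCODE are with predicted genes.

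The start regions of the tightly spaced pairs are shown as a description, and their part in the levels of the chains was not tested. They are the RefSeq promoter windows (GRCm38.p6, 250 bases before to 50 after the start, 5′ to 3′ on the strand of the gene). Windows were given for 5 of the 6 chains, all but Col4a3. Each window had 1 exact match in GRCm39, and coordinates are from that match. In the Col4a4 window (chr1:82564521-82564820, minus strand) the capitals mark the 71 bases between the Col4a4 and Col4a3 gene models, and the Col4a3 model starts 72 bases from the start of Col4a4. In the Col4a1 window (chr8:11362777-11363076, minus strand) and the Col4a2 window (chr8:11362555-11362854, plus strand), which share 78 bases, the capitals mark matches to the GC box GGGCGG or the CCAAT box CCAAT on either strand.
Col4a4: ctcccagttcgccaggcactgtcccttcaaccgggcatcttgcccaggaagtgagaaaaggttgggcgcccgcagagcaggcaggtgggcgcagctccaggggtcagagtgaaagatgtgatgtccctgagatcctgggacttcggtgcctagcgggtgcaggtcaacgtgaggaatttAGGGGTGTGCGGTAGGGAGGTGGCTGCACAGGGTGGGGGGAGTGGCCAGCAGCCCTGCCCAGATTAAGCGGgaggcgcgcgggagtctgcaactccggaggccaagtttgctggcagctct
Col4a1: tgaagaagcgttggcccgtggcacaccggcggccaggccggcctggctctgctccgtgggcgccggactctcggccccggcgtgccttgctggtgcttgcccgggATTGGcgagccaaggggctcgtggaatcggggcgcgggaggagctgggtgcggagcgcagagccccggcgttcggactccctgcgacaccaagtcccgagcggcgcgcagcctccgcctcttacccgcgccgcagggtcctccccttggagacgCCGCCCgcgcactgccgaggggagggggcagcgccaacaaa
Col4a2: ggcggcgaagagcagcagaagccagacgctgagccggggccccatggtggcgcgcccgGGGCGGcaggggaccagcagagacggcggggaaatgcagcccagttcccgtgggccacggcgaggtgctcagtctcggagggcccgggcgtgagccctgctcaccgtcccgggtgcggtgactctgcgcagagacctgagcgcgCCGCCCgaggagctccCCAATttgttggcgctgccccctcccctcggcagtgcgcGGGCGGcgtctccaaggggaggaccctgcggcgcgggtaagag

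The GC box was found in 4 of the 5 windows and in 35.7% of all 32851 windows of the same length in the RefSeq table. CCAAT was found in 3 of the 5 windows and in 37.4% of all windows. TATAAA, searched on both strands, was in 0 of the 5 windows and in 13.6% of all windows. The Col4a4 window, which spans the start of both Col4a4 and Col4a3, held none of these letters on either strand, whereas the Col4a2 window held 3 GC boxes and 1 CCAAT and the Col4a1 window 1 of each. The GC box of Col4a1 and 1 of those of Col4a2 are the same site, in the shared bases. No 2 of the 3 motifs overlapped in the printed windows. The Col4a1 and Col4a2 windows were rich in G and C (74% and 73.7%) and the Col4a4 window less so (63.3%), with a median of 52.7% over all windows. The Col4a6 window was the lowest of the 5, at 48.3%.

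Col4a3 was the chain that set the choice of the family. The PBS libraries held 43.6, 42.8 and 32.6 CPM of it, those of fluvastatin 11.5, 13.1 and 13.7 CPM and those of MBV 7.86, 6.99 and 10.0 CPM. The groups did not overlap, and the highest MBV library was below the lowest fluvastatin library. The counts behind these levels ranged from 859 to 1343 with PBS, 279 to 351 with fluvastatin and 153 to 234 with MBV. The log2 fold change from PBS was -1.64 ± 0.116 (SE, n = 3 per group) for fluvastatin, a 3.12-fold lower level. It was -2.27 ± 0.148 (SE, n = 3 per group) for MBV, 4.82-fold lower. PBS replicate 3 was the lowest of the controls, and without it the difference was -1.76 on the log2 scale for fluvastatin and -2.39 for MBV.

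Col4a4, whose product pairs with that of Col4a3 in the same trimer, was also lower. Its levels were 24.3, 26.7 and 21.0 CPM with PBS, 13.5, 19.8 and 18.1 CPM with fluvastatin and 10.2, 10.7 and 13.0 CPM with MBV. The PBS libraries all lay above the fluvastatin libraries, and these all above the MBV libraries. The log2 fold change from PBS was -0.49 ± 0.133 (SE) for fluvastatin and -1.11 ± 0.115 (SE) for MBV. The pair therefore differed from PBS by unequal amounts. Col4a3 counts per Col4a4 count were 1.80, 1.60 and 1.55 for PBS, 0.851, 0.662 and 0.752 for fluvastatin and 0.773, 0.654 and 0.772 for MBV. The ratio of counts within a library does not depend on scaling, and it did not overlap between PBS and either treatment, whereas the fluvastatin and MBV ratios overlapped.

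**Figure D1:**
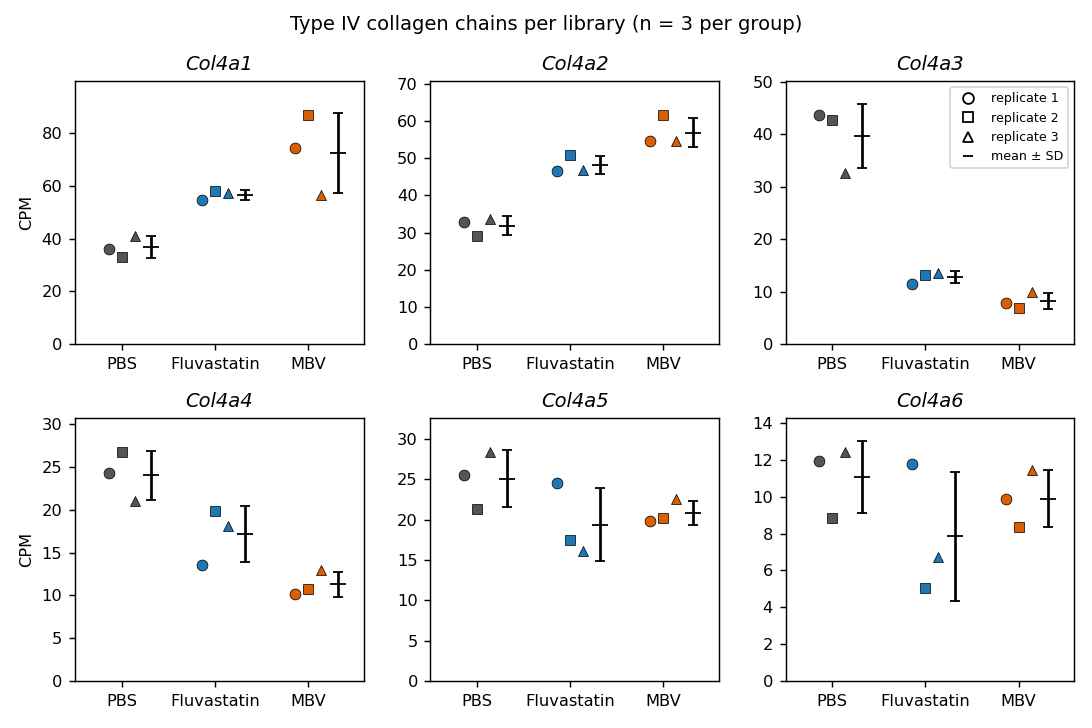
Level of each chain in CPM (y axis, linear from 0, scaled to each gene) in the PBS, fluvastatin and MBV libraries. Points are libraries, marked by replicate number, and the bar beside them is the mean ± SD of 3. Col4a3 sits between 32.6 and 43.6 CPM with PBS and at or below 13.7 CPM in the other 6 libraries, Col4a1 and Col4a2 are higher in every treated library than in any PBS library, and Col4a5 and Col4a6 overlap between groups.

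Col4a1 and Col4a2, which encode the chains of the widespread trimer, went the other way. Col4a1 was present at 36.2, 33.1 and 41.2 CPM with PBS, at 54.6, 58.1 and 57.3 CPM with fluvastatin and at 74.3, 86.8 and 56.5 CPM with MBV. Col4a2 was present at 32.9, 29.0 and 33.7 CPM with PBS, at 46.5, 50.9 and 46.9 CPM with fluvastatin and at 54.5, 61.5 and 54.6 CPM with MBV. For both genes no treated library overlapped the controls. MBV replicate 3 was lower in Col4a1 than the other MBV libraries and lay within the fluvastatin range.

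The log2 fold change of Col4a1 from PBS was 0.62 ± 0.0735 (SE) for fluvastatin and 0.97 ± 0.14 (SE) for MBV. That of Col4a2 was 0.59 ± 0.0669 (SE) for fluvastatin and 0.83 ± 0.0719 (SE) for MBV. Unlike the Col4a3 and Col4a4 pair, the pair kept nearly the same balance with fluvastatin as with PBS. The Col4a1 to Col4a2 count ratio was between 1.10 and 1.22 with PBS and between 1.14 and 1.22 with fluvastatin. With MBV it was 1.36, 1.41 and 1.04, so that replicate 3 lay below all other libraries and the other 2 MBV libraries above them.

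Col4a5 and Col4a6, the chains encoded on the X chromosome, were not called against PBS in either treatment. Col4a5, whose product enters both of the less widespread trimers, was present at 25.5, 21.3 and 28.4 CPM with PBS, at 24.5, 17.5 and 16.2 CPM with fluvastatin and at 19.8, 20.1 and 22.5 CPM with MBV. Col4a6 was the lowest chain by CPM with PBS, at 11.9, 8.83 and 12.4 CPM, and was at 11.8, 5.05 and 6.74 CPM with fluvastatin and at 9.87, 8.36 and 11.5 CPM with MBV. All group ranges of these chains overlapped with those of PBS. The log2 fold change from PBS was -0.37 ± 0.148 (SE) for Col4a5 and -0.50 ± 0.254 (SE) for Col4a6 with fluvastatin, and -0.28 ± 0.101 (SE) and -0.17 ± 0.149 (SE) with MBV. Fluvastatin replicate 1 carried both genes at the PBS level. Without that library the log2 fold change was -0.57 for Col4a5 and -0.91 for Col4a6, and both then passed the call threshold. Col4a5 with MBV passed it without PBS replicate 2 or MBV replicate 3. Nothing is read from these calls, since the family was chosen on the comparisons with PBS.

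In all, 4 of the 6 chains passed the call threshold against PBS in each treatment, Col4a1 and Col4a2 higher and Col4a3 and Col4a4 lower, against the 19.6% and 26.1% of all genes given above. Leaving out 1 library, the count ran from 3 to 6 with fluvastatin and from 4 to 5 with MBV, and Col4a4 with fluvastatin was not called without PBS replicate 1 or 2 or fluvastatin replicate 3. Since the family was chosen on these comparisons, nothing is read from these counts or from the calls of single chains against PBS. The 2 comparisons share the 3 PBS libraries.

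Per kilobase of merged exon, the chains can be set beside each other. The exon lengths are those of GENCODE release M39, whose Col4a4 model reaches beyond the counted one. The order of the chains and their shares are therefore approximate. In the PBS retina the order was Col4a1 at 4.94 ± 0.545, Col4a2 at 4.44 ± 0.349, Col4a3 at 3.98 ± 0.614, Col4a5 at 2.68 ± 0.38, Col4a4 at 2.10 ± 0.25 and Col4a6 at 1.39 ± 0.244 CPM per kb (SD, n = 3). The ranges of Col4a1 and Col4a2, of Col4a2 and Col4a3, and of Col4a5 and Col4a4 overlapped between libraries. Within each PBS library Col4a1 lay above Col4a2, at 4.85 and 4.59, 4.44 and 4.04, and 5.52 and 4.69 CPM per kb. The order of Col4a2 and Col4a3 and that of Col4a5 and Col4a4 were reversed in PBS replicate 2. With fluvastatin the order became Col4a1 at 7.59 ± 0.248, Col4a2 at 6.70 ± 0.335, Col4a5 at 2.08 ± 0.48, Col4a4 at 1.50 ± 0.286, Col4a3 at 1.28 ± 0.113 and Col4a6 at 0.985 ± 0.439 CPM per kb. With MBV it was Col4a1 at 9.72 ± 2.04, Col4a2 at 7.92 ± 0.557, Col4a5 at 2.23 ± 0.157, Col4a6 at 1.24 ± 0.195, Col4a4 at 0.986 ± 0.13 and Col4a3 at 0.831 ± 0.156 CPM per kb. Col4a3 thus stood just below Col4a1 and Col4a2 with PBS and last with MBV. In both treatments the ranges of neighbours among Col4a3, Col4a4 and Col4a6 overlapped, while Col4a1 and Col4a2 overlapped with MBV alone.

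The summed level of the 6 chains was 169 ± 6.41 CPM with PBS, 162 ± 2.79 CPM with fluvastatin and 180 ± 13.5 CPM with MBV (SD, n = 3). In CPM the PBS range overlapped those of both treatments. Per kb the sum was 19.5 ± 0.9, 20.1 ± 0.4 and 22.9 ± 2.0 CPM per kb, and every MBV library lay above all PBS and fluvastatin libraries. The make-up of the sum also differed between the groups. By CPM per kb, Col4a1 plus Col4a2 made up 46.8%, 45.8% and 51.2% of the family's level for PBS, 68.2%, 72.8% and 72.0% with fluvastatin and 77.7%, 80.7% and 71.7% with MBV. Col4a3 plus Col4a4 made up 32.3%, 35.9% and 25.7% with PBS, 11.5%, 14.9% and 15.0% with fluvastatin and 7.43%, 6.54% and 10.1% with MBV. The share of Col4a3 plus Col4a4 was lower in every treated library than in any PBS library, and lower in every MBV library than in any fluvastatin library. The share of Col4a5 plus Col4a6 was 20.8 ± 2.38% with PBS, 15.2 ± 4.41% with fluvastatin and 15.3 ± 2.71% with MBV. Counts of Col4a1 per count of Col4a3 went from 0.774 to 1.26 with PBS, from 4.20 to 4.75 with fluvastatin and from 5.65 to 12.4 with MBV.

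**Figure D2:**
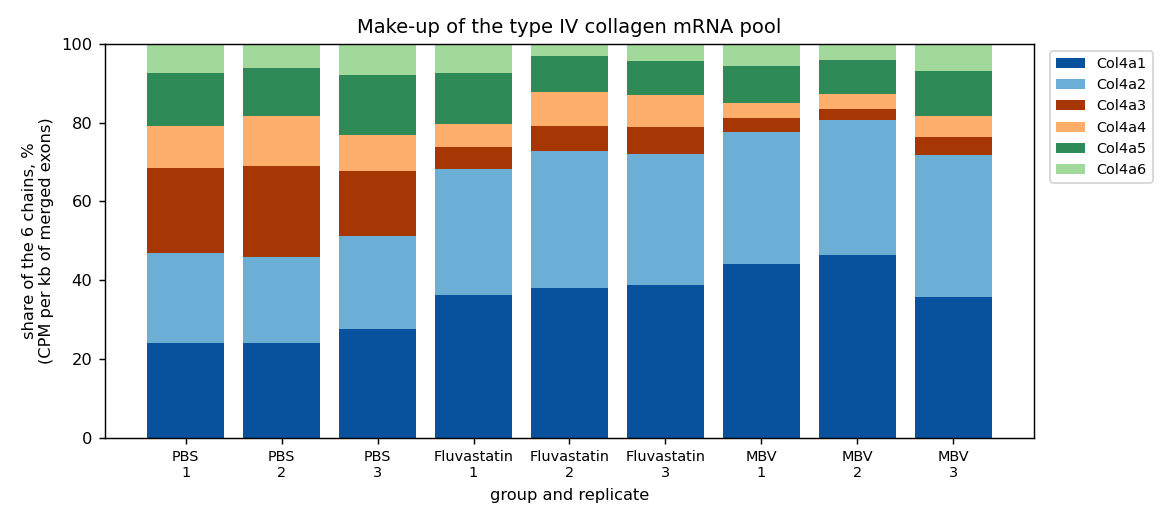
Share of each chain in the family's summed CPM per kb of merged exons (y axis, percent) in each of the 9 libraries, stacked from Col4a1 at the bottom to Col4a6 at the top. Col4a1 plus Col4a2 take 45.8% to 51.2% in the PBS libraries and at least 68.2% in the treated libraries, while Col4a3 alone goes from 16.4% to 23.2% with PBS to between 2.80% and 6.94% in the others.

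**Figure D3:**
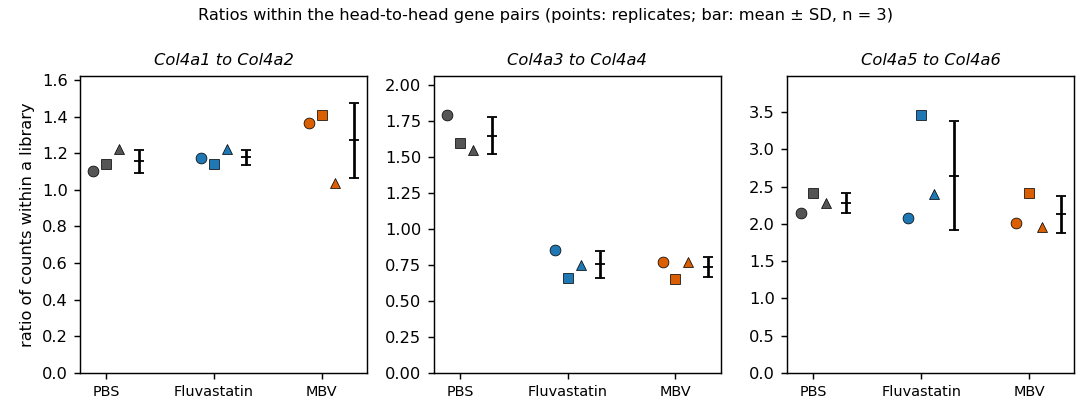
Ratio of counts within each head-to-head gene pair (y axes, linear from 0) per library, with circles, squares and triangles for replicates 1, 2 and 3 and bars for mean ± SD (n = 3). The Col4a3 to Col4a4 ratio lies between 1.55 and 1.80 with PBS and between 0.654 and 0.851 in the treated libraries, and the ratios of the other pairs overlap between PBS and fluvastatin.

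MBV was next compared with fluvastatin, the comparison on which the family was not chosen. In the edgeR fit 0 of the 6 chains were called, beside 0.0588% of all genes. At an unadjusted p under 0.05, 4 of the 6 passed, beside 10.7% of all genes, and DESeq2 called 2 of the 6, beside 0.673% of all genes. The 4 were Col4a1 to Col4a4. Col4a3 was lower with MBV than with fluvastatin by a log2 fold change of -0.62 ± 0.139 (SE, 95% interval -0.93 to -0.31, edgeR adjusted p = 0.196), and in 3 of 3 MBV libraries it was below all fluvastatin libraries. Col4a4 was lower by -0.61 ± 0.148 (SE, 95% interval -0.94 to -0.28, edgeR adjusted p = 0.251), also without overlap. DESeq2 gave adjusted p = 0.0282 for Col4a3 and 0.036 for Col4a4.

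For Col4a1 the difference of MBV from fluvastatin was 0.36 on the log2 scale (SE 0.126, 95% interval 0.07 to 0.64, edgeR adjusted p = 0.39), and 2 of 3 MBV libraries were above all fluvastatin libraries. For Col4a2 it was 0.24 (SE 0.0658, 95% interval 0.09 to 0.39, edgeR adjusted p = 0.3), with 3 of 3 above. Col4a5 differed by 0.10 (95% interval -0.22 to 0.42, edgeR adjusted p = 0.805) and Col4a6 by 0.34 (95% interval -0.26 to 0.93, edgeR adjusted p = 0.682). These intervals bound the differences and do not show that the treatments act alike. The calls depended on the test and on 1 library. Without MBV replicate 3, edgeR called 3 of the 6 chains, Col4a1 at 0.51, Col4a3 at -0.78 and Col4a4 at -0.72 on the log2 scale, with adjusted p of 0.0136, 0.0209 and 0.0489, and the calls over all genes went from 11 to 197.

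**Figure D4:**
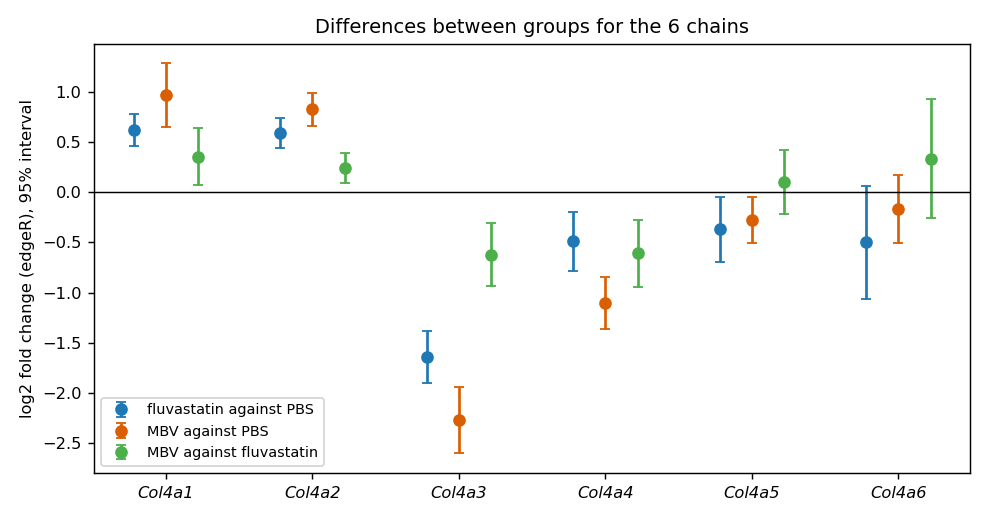
Log2 fold change of the 6 chains from edgeR (y axis), with 95% intervals, for fluvastatin against PBS, MBV against PBS and MBV against fluvastatin (n = 3 libraries per group). Only the last comparison is a test of the chains. In it the intervals of Col4a1 to Col4a4 lie off 0 before adjustment over all genes, and those of Col4a5 and Col4a6 span 0.

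The genes that flank the pairs were looked up next. On chromosome 1, Rhbdd1, a rhomboid protease gene, ends 3057 bases from Col4a4 and was at 14.1 to 15.2 CPM with PBS, 10.5 to 13.5 with fluvastatin and 11.6 to 15.3 with MBV. It was not called in any of the 3 comparisons (edgeR adjusted p = 0.119, 0.318 and 0.786). Mff, a mitochondrial fission factor gene, lies 2831 bases beyond Col4a3. It was called lower against PBS by -0.30 with fluvastatin and -0.36 with MBV on the log2 scale (edgeR adjusted p = 0.00414 and 0.00238), a smaller difference than that of Col4a3. On chromosome 8, the insulin receptor substrate gene Irs2 and the small GTPase gene Rab20 had log2 fold changes between -0.09 and 0.19 in the 3 comparisons and were not called. Beside the pair on the X chromosome, the autophagy protease gene Atg4a lay between -0.10 and 0.02. Irs4, at less than 1 CPM in every library, was 1.20 with fluvastatin and 0.94 with MBV and was not called either.

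The genes whose pattern over the 9 libraries was most like that of Col4a3 were Fam169a (r = 0.995), Nadk2 (0.993), Acadsb (0.990), Osbpl8 (0.990) and Rbx1 (0.990), by Pearson's r across libraries on the log2(CPM + 0.5) scale among 13971 genes with a mean of at least 1 CPM. Nadk2 encodes mitochondrial NAD kinase, Acadsb a mitochondrial acyl-CoA dehydrogenase and Rbx1 a ubiquitin ligase subunit. These r values are a description. All points share the split between PBS and treated libraries, and the depth and set of the libraries. The sizes were far from that of Col4a3, since the 5 genes were lower than PBS by -0.28 to -0.39 with fluvastatin and -0.38 to -0.54 with MBV on the log2 scale. The genes with the most opposite pattern were Hectd4 (r = -0.994), Smap2 (-0.990) and Bcl9l (-0.987). Within the family, r with Col4a3 was 0.923 for Col4a4, 0.483 for Col4a5 and 0.262 for Col4a6, and -0.961 for Col4a1 and -0.979 for Col4a2. Those most like Col4a1 were Mypop (0.994), Trio (0.994), Hip1 (0.992), Plxna4 (0.990) and Ank3 (0.989), and Col4a2 had r = 0.958 with it.

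Beyond the chains, the other parts of the basement membrane were examined in a list of 26 genes of laminins, nidogens, heparan sulfate proteoglycans and associated proteins. With fluvastatin, 6 of 26 rose and 2 fell compared to PBS, beside 9.36% and 10.2% of all genes. With MBV, 8 of 26 rose and 2 fell, beside 12% and 14.1%. The list's median log2 fold change was -0.08 and 0.04, with a median over all genes of -0.01 and 0.01. Sparc, which encodes a collagen-binding chaperone of basement membranes, went from 177 to 195 CPM with PBS to 264 to 290 with fluvastatin and 262 to 324 with MBV, without overlap. Its log2 fold change was 0.60 with fluvastatin and 0.65 with MBV (edgeR adjusted p = 0.000287 and 0.000778).

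Nid1, the nidogen that links the laminin and collagen networks, rose by 0.77 with fluvastatin and 1.12 with MBV (edgeR adjusted p = 0.013 and 0.00468), from a level of 2.05 to 3.09 CPM with PBS. Agrn, the proteoglycan agrin, rose by 0.40 and 0.52 on the log2 scale, and Npnt, the integrin ligand nephronectin, by 0.47 and 0.42. Of the laminin chains, Lama4, of vessels, rose by 0.65 and 0.97, while Lama3 fell by 0.48 with fluvastatin and Lama2 by 0.51 with MBV. Smoc1 fell by 0.26 with fluvastatin and Frem1 by 0.21 with MBV. The other genes called higher were Egflam with fluvastatin and Lama5, Lamc3 and Hspg2, the perlecan gene, with MBV. Without PBS replicate 1, 4 of the 8 calls with fluvastatin and 3 of the 10 with MBV were lost, among them Lama3, Lama4 and Smoc1 with fluvastatin and Lama2 with MBV. With fluvastatin, the calls of Lama4, Smoc1 and Egflam were lost in 5 of the 6 fits that left out 1 library. That of Lama3 was lost in 4 of them. Nid1 was not called with fluvastatin without fluvastatin replicate 2, while the calls of Sparc, Agrn and Npnt held in all 6 fits that left out 1 library, in both comparisons.

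**Figure D5:**
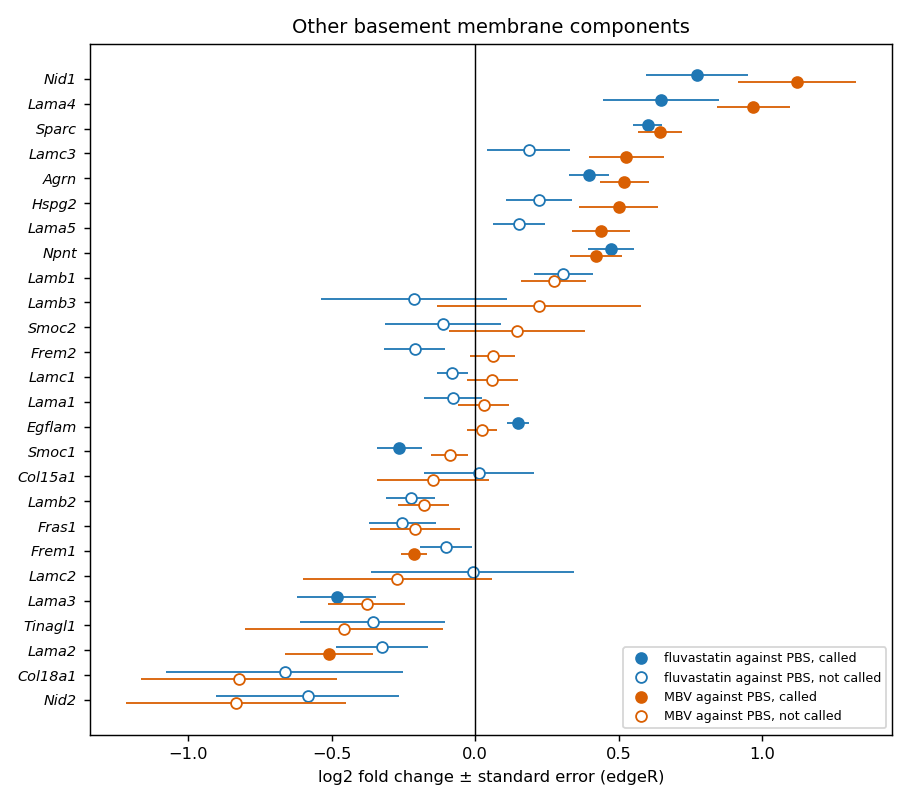
Log2 fold change from PBS ± standard error (x axis, edgeR) of the 26 other basement membrane genes (rows, sorted by MBV) with fluvastatin in blue and MBV in orange (n = 3 libraries per group). Filled points were called at an adjusted p under 0.05 and open points were not. Nid1, Lama4 and Sparc lie highest, at 0.60 or more in both comparisons, and Nid2 and Col18a1, which were not called, lie lowest with MBV, at -0.83 and -0.82.

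The enzymes and chaperones that make and crosslink type IV collagen formed a list of 21 genes. With fluvastatin 5 of 21 rose and 2 fell, beside 9.36% and 10.2% of all genes, and with MBV 6 rose and 4 fell, beside 12% and 14.1%. The median log2 fold change was 0.00 and 0.07. Plod1, a lysyl hydroxylase, rose by 0.55 with fluvastatin and 0.71 with MBV (edgeR adjusted p = 0.00294 and 0.000409). P3h3, of the prolyl 3-hydroxylase family, rose by 0.48 and 0.72, and Loxl2, a lysyl oxidase that crosslinks collagen IV, by 0.41 and 0.59. The prolyl 4-hydroxylase subunit P4ha3 rose by 1.10 with fluvastatin from less than 1 CPM. The secretion factor gene Mia3 rose by 0.20 with fluvastatin, from 178 to 182 CPM with PBS. With MBV P4ha2 rose by 0.41. The genes that fell were Colgalt2 and Cert1 with both treatments and Crtap and Ppib with MBV, by 0.17 to 0.62 on the log2 scale. Crtap and Ppib encode members of the prolyl 3-hydroxylation complex. Without PBS replicate 1, 5 of the 7 calls with fluvastatin and 5 of the 10 with MBV were lost, and Plod1 and P3h3 were called in both comparisons in all fits that left out 1 library.

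Among 12 receptors and gelatinases, 3 rose and 1 fell with fluvastatin, and 5 rose and 1 fell with MBV, beside 9.36% and 10.2% of all genes with fluvastatin and 12% and 14.1% with MBV. The list median was 0.21 and 0.38. Both type IV collagenases were higher. Mmp2 rose by 0.56 and 0.72 (edgeR adjusted p = 0.0067 and 0.000678) and Mmp9 by 0.53 and 0.64 (0.0349 and 0.0126). Mmp9 was not called in fluvastatin against PBS without PBS replicate 1 or 2 or without fluvastatin replicate 2 or 3. Itga1, an integrin subunit that binds collagen IV, rose by 0.71 with MBV, as did Itga3, by 0.37, and the dystroglycan gene Dag1 rose by 0.18 and 0.24. The collagen receptor gene Ddr2 fell by 0.93 with fluvastatin and 0.68 with MBV. Without PBS replicate 1, 3 of the 4 calls with fluvastatin and 3 of the 6 with MBV were lost, Ddr2 and Dag1 among them in both. The Dag1 call with fluvastatin was lost in 5 of the 6 fits that left out 1 library.

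Of 12 genes of TGF-beta signalling, a pathway that drives matrix production in many tissues, with Lmx1b, a regulator of Col4a3 and Col4a4 in the kidney, 1 rose and 3 fell with each treatment, beside 9.36% higher and 10.2% lower of all genes with fluvastatin and 12% and 14.1% with MBV. The list median was -0.08 and -0.01. Lmx1b itself was hardly detected, at 0.0975 to 0.228 CPM with PBS, 0 to 0.127 with fluvastatin and 0.0457 to 0.214 with MBV. It was not called against PBS. The ligand gene Tgfb3 rose by 0.55 and 0.44. The receptor genes Tgfbr1 and Tgfbr3 fell by 0.33 and 0.61 with fluvastatin and by 0.33 and 0.72 with MBV. Ccn2, a target gene of the pathway, fell by 0.74 and 0.50. Leaving out PBS replicate 1 cost none of these calls, and Ccn2 was not called without PBS replicate 3, fluvastatin replicate 2 or 3, or MBV replicate 1 or 2.

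In MBV against fluvastatin none of these 71 genes was called by edgeR, beside 0.0267% of all genes called higher and 0.032% lower. At an unadjusted p under 0.05, 4 of 26, 7 of 21, 1 of 12 and 0 of 12 genes of the lists passed, in the order above, beside 10.7% of all genes. DESeq2 called 1 of them, in the biosynthesis list.

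Markers of other cells that can make basement membrane, or be carried along with a dissected retina, moved beside these values. Their counts against PBS stand beside 9.36% of all genes called higher and 10.2% lower with fluvastatin, and 12% and 14.1% with MBV, so that 1 call in a list of 6 to 10 genes is near the background. The summed level of 8 melanosome genes of pigment cells was 95.6 to 145 CPM with PBS, 31.3 to 41.1 with fluvastatin and 25.1 to 41.9 with MBV, and 5 and 6 of the 8 fell, in the same libraries in which Col4a3 and Col4a4 were low. Of 10 pigment epithelium genes, 5 rose and 1 fell with fluvastatin and 3 rose and 1 fell with MBV, and without PBS replicate 1, 2 of these 6 and 3 of these 4 calls were lost. Most of their summed level was Rlbp1, which is also in the Müller glia list and fell, from 215 to 224 CPM with PBS to 172 to 185 with fluvastatin and 165 to 170 with MBV. The mean log2 level of the list was 3.11 to 3.24 with PBS, 3.25 to 3.84 with fluvastatin and 3.08 to 3.77 with MBV. The sum of 10 lens genes was 2.20 to 6.50 CPM with PBS, 3.27 to 18.1 with fluvastatin and 50.8 to 134 with MBV, and 8 of 10 rose with MBV, the group in which Col4a1 and Col4a2 were highest. Without PBS replicate 1, 3 of these 8 calls were lost. With fluvastatin 1 lens gene fell and 0 rose, a call that DESeq2 did not make.

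Endothelial and mural cells surround themselves with type IV collagen as well. Of 8 endothelial genes 1 fell with fluvastatin and 1 rose with MBV, with sums of 393 to 443 CPM with PBS, 347 to 379 with fluvastatin and 354 to 414 with MBV. Most of the sum was Kdr and Flt1, at 226 to 276 and 136 to 150 CPM with PBS. The mean log2 level of the list was 3.34 to 3.62 with PBS, 3.35 to 3.70 with fluvastatin and 3.56 to 3.90 with MBV. The list's median log2 fold change from PBS was 0.20 with fluvastatin and 0.36 with MBV. Of 8 pericyte and smooth muscle genes 1 fell with fluvastatin and 2 rose with MBV, with sums of 85.9 to 124 CPM over all libraries. The endothelial and mural calls with MBV were all lost without PBS replicate 1. Of 8 Müller glia and astrocyte genes 5 fell with fluvastatin and 2 with MBV, but DESeq2 called 2 with fluvastatin and 4 of the 5 calls were lost without PBS replicate 1. The sum was 3100 to 3705 CPM with PBS, 1786 to 2991 with fluvastatin and 1607 to 2940 with MBV, most of it Glul, at 1915 to 2592 CPM with PBS. The mean log2 level of the list was 6.88 to 7.04 with PBS and 6.76 to 6.93 with fluvastatin, which overlapped. With MBV it was 6.67 to 6.84, below all PBS libraries. Fibroblast and sclera genes numbered 7, of which 1 rose and 3 fell with fluvastatin and 2 rose and 1 fell with MBV, with 2 of the 4 and 2 of the 3 calls lost without PBS replicate 1. Of 7 surface epithelium genes, 2 fell with fluvastatin and 4 with MBV, and the 2 calls with fluvastatin were lost without PBS replicate 1 and not made by DESeq2. Of 6 genes of ciliary epithelium and choroid plexus-like cells, 1 rose and 1 fell with fluvastatin and 1 rose and 3 fell with MBV, of which 2 were lost without PBS replicate 1. None of 7 microglia and macrophage genes was called against PBS, with 1 and 2 at an unadjusted p under 0.05 and 0 by DESeq2 in either comparison. The MBV libraries were widely spread in 2 of these genes. Ccr2 was at 0.273 to 1.52 CPM with PBS and 0.594 to 9.50 with MBV, and Ly6c2 at 0 to 0.065 and 0.0457 to 2.87. The study's own list for MBV alone against PBS holds Ccr2 as higher. No gene of these lists was at or under 3 counts in every library. The part of these cells in the levels of the chains was not tested.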

How the data were processed

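Total RNA of whole retina was sequenced by the authors as paired-end reads and aligned to GRCm39 in CLC Genomics Workbench 22.0.2. The deposited values are raw total counts per gene and library, as the authors made them. The 4 tables hold 9 count columns that name a PBS, fluvastatin or MBV library, and repeated columns were identical. A further 6 count columns name no library or group and were not used, so the combined treatment is not analysed here. Columns of the authors' comparisons (group means, fold changes, p-values) were not used.

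Counts were tested with edgeR 4.0.16 in R 4.3.3 (TMM, quasi-likelihood test, fit of the 2 groups compared, genes with at least 1 count in 1 of the 6 libraries, Benjamini-Hochberg over all genes, called at 0.05), with DESeq2 1.42.0 as an alternative. The edgeR script was tested on simulated data. CPM used TMM-scaled totals over 9 libraries, and lengths were merged exons of GENCODE M39. The 9 totals, 21349516 to 30992040 counts, set the counting error. Likeness was Pearson's r on log2(CPM + 0.5).

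The members, gene lists and tests were chosen with earlier results of these data known. By rule, the text names the 6 chains, the called genes of each pathway list (up to 4 with the smallest adjusted p per direction and comparison), the 5 genes most and 3 least like Col4a3, the 5 most like Col4a1, and the nearest protein-coding genes beside each pair. Other called genes of the lists (Egflam, Hspg2, Lamc3, Lama5, P4ha3) were named to complete a count after their values were seen. Alternatives were other size factors, DESeq2, a stricter filter, the replicate number as a block, 1 fit of all 9 libraries and leaving out each library.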

Additional observations from a re-analysis of the deposited data

How the results depend on the processing

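Of 216 alternative values of the chains' log2 fold changes, 202 kept their side of the threshold, 11 passed it only in the alternative and 3 no longer passed it. The sign changed in 1 of them, Col4a5 in MBV against fluvastatin, which was not called and went from 0.10 to -0.02 without fluvastatin replicate 3. Col4a4 in fluvastatin against PBS was not called without PBS replicate 1 or 2 or fluvastatin replicate 3. Leaving out 1 library, fluvastatin against PBS gave 1726 to 4402 genes called, MBV against PBS 2711 to 5664, MBV against fluvastatin 0 to 197, and chains called in the last 0 to 3. For MBV against fluvastatin (11 genes, 0 chains), DESeq2 called 126 genes and 2 chains, the stricter filter (at least 10 counts in 2 of 6 libraries) 5 genes and 1 fit of all 9 libraries 27 genes. The deviations of same-numbered libraries from their group means had r from -0.429 to 0.19. Libraries with different numbers were not compared in this way, so whether same-numbered samples share more than a number stays undecided. With the replicate block 0 genes were called in MBV against fluvastatin, and Col4a6 with fluvastatin (-0.54) and Col4a5 with MBV (-0.27) passed the threshold against PBS. As above, nothing is read from the calls of the chains against PBS. The 5 genes most like Col4a3 kept 2 to 4 of 5 when 1 library was left out. The cause of these changes was not tested, beyond fewer libraries in the fits that left 1 out. The comparisons of the combined treatment and the main effects over both sets of library names were not run, since its count columns name no library.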
